A study of Mus musculus with 12 samples.

Results

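The circadian clock genes described here are 10 genes, Arntl, Clock, Npas2, Nr1d1, Dbp, Per1, Per2, Per3, Cry1 and Cry2, taken by name from the 18194 genes measured on the arrays, with all of their 23 probe sets. The study compared whole lungs of C57BL/6 mice on day 21 after an endotracheal injection. There were 4 groups of 3 arrays: FIZZ2 knockout mice given bleomycin, which is used to injure the lung and produce fibrosis, FIZZ2 knockout mice given saline, wild type mice given bleomycin and wild type mice given saline. FIZZ2 is the secreted protein encoded by Retnlb. All lungs had been perfused with PBS before total RNA was extracted, and the sources used here name no promoter, Cre or deleted exon for the knockout, and no age or sex. Nothing in the labels ties each array to an animal of its own, and the p-values therefore reflect the spread between these arrays, which may be technical. The time of day of harvest is not given in the sources used here, so a different harvest time and a different level of a clock gene at 1 time of day cannot be told apart.

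The mammalian clock is a loop of transcription. ARNTL (also called BMAL1) pairs with CLOCK or NPAS2 and activates genes through E-boxes, among them the Per and Cry genes, whose proteins then repress that pair, and Nr1d1 and Dbp, whose proteins act on further genes. NR1D1 (REV-ERB alpha) represses Arntl at ROR elements, and DBP acts at D-boxes. In mouse peripheral tissues, lung included, transcripts of Dbp and Nr1d1 peak in the light phase, those of the Per genes follow, Cry1 comes later, and Arntl peaks around the change from dark to light, opposite to Dbp. Lung cells run this clock themselves, and glucocorticoids and feeding set its phase.

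The promoter windows of several of these genes hold the elements of that loop. The windows come from RefSeq (GRCm38.p6) and run from 250 bases before to 50 bases after a transcript start. They were found for 9 of the 10 genes, all but Per2, 13 windows in all. Each was searched on both strands for the E-box CACGTG, the noncanonical E-box CACGTT, the D-box TTATGTAA or TTACGTAA, the ROR element TAGGTCA or TGGGTCA, and the cyclic AMP response element TGACGTCA. No matches overlapped one another. The 4 windows of clock genes below are shown as examples that hold a match, with that of Ciart, a repressor of ARNTL and CLOCK that is not one of the 10. They do not stand for all genes that differ further on. The windows of Clock and Dbp held no match and are not shown, nor are those of Per1 and Cry2, which have matches. The other Arntl window held none. Capitals mark the matches, and a noncanonical E-box on the other strand reads AACGTG.
Arntl, chr7:113207261-113207560, plus strand, ROR element 31 bases after the start: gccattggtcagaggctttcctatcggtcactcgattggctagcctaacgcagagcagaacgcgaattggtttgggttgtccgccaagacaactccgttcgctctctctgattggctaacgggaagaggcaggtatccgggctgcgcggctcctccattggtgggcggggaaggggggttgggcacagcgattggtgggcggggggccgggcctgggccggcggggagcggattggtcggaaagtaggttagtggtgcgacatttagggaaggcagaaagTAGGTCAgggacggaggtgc
Nr1d1, chr11:98775328-98775627, minus strand, noncanonical E-box: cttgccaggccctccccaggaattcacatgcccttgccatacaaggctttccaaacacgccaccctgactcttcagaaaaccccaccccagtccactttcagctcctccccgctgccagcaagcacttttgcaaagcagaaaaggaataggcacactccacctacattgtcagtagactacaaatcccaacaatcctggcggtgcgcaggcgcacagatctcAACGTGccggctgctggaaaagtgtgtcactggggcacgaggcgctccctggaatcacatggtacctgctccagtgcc
Per3, chr4:151044616-151044915, minus strand, 2 D-boxes: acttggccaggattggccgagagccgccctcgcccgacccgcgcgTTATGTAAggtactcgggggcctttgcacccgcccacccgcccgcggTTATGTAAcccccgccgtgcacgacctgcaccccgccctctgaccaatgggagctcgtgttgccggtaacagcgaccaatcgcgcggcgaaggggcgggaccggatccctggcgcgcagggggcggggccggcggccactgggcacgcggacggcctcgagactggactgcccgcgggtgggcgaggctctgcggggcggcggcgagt
Cry1, chr10:85185005-85185304, minus strand, noncanonical E-box and E-box: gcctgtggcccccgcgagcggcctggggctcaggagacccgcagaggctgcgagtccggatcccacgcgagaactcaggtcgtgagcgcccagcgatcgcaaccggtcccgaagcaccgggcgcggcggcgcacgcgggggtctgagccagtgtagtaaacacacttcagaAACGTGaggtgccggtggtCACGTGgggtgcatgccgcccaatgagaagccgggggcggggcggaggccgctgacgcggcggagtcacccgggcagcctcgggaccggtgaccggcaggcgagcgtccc
Ciart, chr3:95882179-95882478, minus strand, 3 E-boxes: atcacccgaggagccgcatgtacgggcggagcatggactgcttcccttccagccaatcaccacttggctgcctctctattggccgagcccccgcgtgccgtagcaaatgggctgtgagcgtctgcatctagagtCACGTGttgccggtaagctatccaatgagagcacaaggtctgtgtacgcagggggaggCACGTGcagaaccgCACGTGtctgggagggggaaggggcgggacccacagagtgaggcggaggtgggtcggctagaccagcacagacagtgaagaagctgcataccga

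Among the 9 genes, the E-box was present in windows of 2 (Cry1 and Per1), the noncanonical E-box in 3 (Nr1d1, Cry1 and Cry2), the D-box in 1 (Per3), the ROR element in 1 (Arntl) and the cyclic AMP response element in none. Of all 27025 genes with a window, 8.09% held the E-box, 5.44% the noncanonical E-box, 1.23% the D-box, 7.35% the ROR element and 2.03% the cyclic AMP response element in at least 1 window. The shares of the 32851 windows were 7.15%, 4.68%, 1.06%, 6.45% and 1.79% in the same order. Clock, Npas2 and Dbp had no match in these windows. A match is a description of the letters and does not show that a factor binds there.

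Values are log2 signals as deposited, 1 probe set per gene being taken by the highest mean over all arrays, and a gene was called at an adjusted p under 0.05 over all genes (limma, Benjamini-Hochberg). Probe sets differ in how they bind, so levels are compared between samples of a gene and not between genes. Medians of the arrays lay between 5.58 and 5.68, and arrays of a group correlated at 0.988 to 0.997 over all probe sets. The lung markers were bright on all arrays, Sftpc of the alveolar type II cell at 13.97 to 14.24 and Scgb1a1 of the club cell at 13.90 to 14.19. The targeted gene Retnlb was dim throughout, at 3.49 to 3.72 in knockout bleomycin lungs, 3.54 to 3.83 in knockout saline lungs, 3.80 to 4.13 in wild type bleomycin lungs and 3.57 to 3.84 in wild type saline lungs, so its level checks the genotype labels only weakly. Wild type saline replicate 2 stood apart in the difference between 3 prime and 5 prime control probe sets, at 1.41 for actin and 1.42 for Gapdh, where the other arrays reached at most 0.96 and 0.80. Without that array the same 6 clock genes were called for bleomycin in wild type lungs and the same 1 between genotypes after saline, Nr1d1 and Per3 for bleomycin in knockout lungs, and none for the difference between responses. The tissue was bulk lung, in which fewer cells of a type and less RNA per cell cannot be told apart.

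In wild type lungs most of the clock genes changed with bleomycin. Nr1d1, Dbp, Per2, Per3 and Cry2 fell, Clock rose, and Arntl, Npas2, Per1 and Cry1 did not pass the test. In all, 6 of the 10 clock genes were called, where 27.7% of all genes were. The 5 falls stand beside 14.4% of all genes called lower and the 1 rise beside 13.3% called higher. For 8 of the 10 the wild type groups did not overlap, as for 40% of all genes. The median log2 change of the 10 was -0.40, beside -0.04 over all genes tested. In knockout lungs bleomycin lowered Nr1d1, and the other 9 were not called. That is 1 of 10, where 3.26% of all genes were called and 1.29% were called lower. The knockout groups did not overlap for 4 of the 10 and for 27% of all genes, and the median log2 change of the 10 was -0.06, beside 0.01 over all genes.

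**Figure D1:**
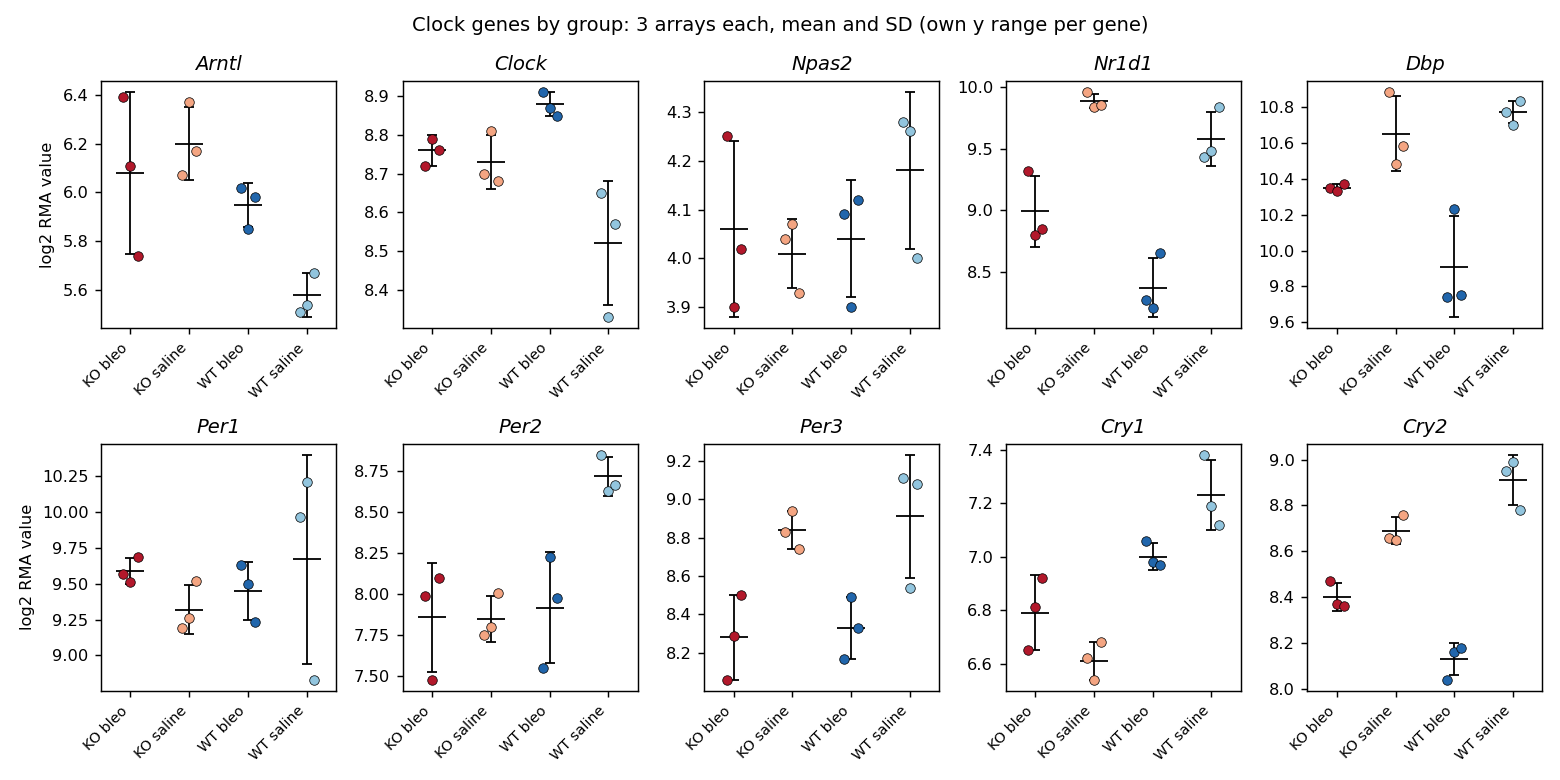
Log2 signal of each of the 10 clock genes (one panel each) on the 12 arrays, with the groups along the horizontal axis from left to right knockout bleomycin, knockout saline, wild type bleomycin and wild type saline; points are arrays and bars are group means. Nr1d1, Dbp and Cry2 sit lower in the bleomycin lungs of both genotypes, and Cry1 and Per2 sit highest in wild type saline lungs.

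Of the activators, Arntl was at 6.39, 6.11 and 5.74 in knockout bleomycin lungs, against 6.07, 6.37 and 6.17 in knockout saline lungs. In wild type lungs it was at 6.02, 5.85 and 5.98 after bleomycin, against 5.51, 5.54 and 5.67 after saline. The 3 wild type saline arrays were thus the lowest of the 12, and the other groups overlapped. The change with bleomycin was -0.12 ± 0.14 in knockout lungs (log2, ± SE, adjusted p = 0.700) and 0.37 ± 0.14 in wild type lungs (adjusted p = 0.0608), neither past the test.

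Clock, the partner of ARNTL, was at 8.72, 8.79 and 8.76 in knockout bleomycin lungs, against 8.70, 8.81 and 8.68 in knockout saline lungs. It was at 8.91, 8.87 and 8.85 in wild type bleomycin lungs, against 8.65, 8.33 and 8.57 in wild type saline lungs, without overlap. The knockout arrays lay between, and the change was 0.03 ± 0.08 in knockout lungs (adjusted p = 0.912) and 0.36 ± 0.08 in wild type lungs (adjusted p = 0.00665), a 1.28-fold rise. Npas2, which can stand in for CLOCK, lay between 3.90 and 4.28 on all arrays with its brightest probe set. Of all probe sets 29.98% lay under that level, and its groups overlapped. A second, dimmer probe set was at 3.98, 3.69 and 3.78 in wild type bleomycin lungs, against 3.65, 3.54 and 3.42 in wild type saline lungs, and was not called.

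Nr1d1, the repressor of Arntl, showed the largest fall among the 10 in both genotypes. It was at 9.32, 8.80 and 8.85 in knockout bleomycin lungs, against 9.96, 9.84 and 9.86 in knockout saline lungs. In wild type lungs it was at 8.27, 8.20 and 8.65 after bleomycin, against 9.43, 9.48 and 9.84 after saline. Every bleomycin array was below every saline array of either genotype. The fall was 1.86-fold in knockout lungs (-0.89 ± 0.15, adjusted p = 0.00826) and 2.31-fold in wild type lungs (-1.21 ± 0.15, adjusted p = 8.9e-05).

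Dbp, the D-box activator and a direct output of ARNTL and CLOCK, was at 10.35, 10.33 and 10.37 in knockout bleomycin lungs, against 10.88, 10.48 and 10.58 in knockout saline lungs. It was at 9.74, 10.23 and 9.75 in wild type bleomycin lungs, against 10.77, 10.70 and 10.83 in wild type saline lungs. The bleomycin arrays were again below the saline arrays within each genotype. The 1.82-fold fall in wild type lungs passed the test (-0.86 ± 0.13, adjusted p = 2.99e-04), whereas the change of -0.30 ± 0.13 in knockout lungs did not (adjusted p = 0.245).

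Among the Period genes, which encode repressors of ARNTL and CLOCK, Per2 was at 7.99, 7.48 and 8.10 in knockout bleomycin lungs, against 7.75, 7.80 and 8.01 in knockout saline lungs. It was at 7.55, 8.23 and 7.98 in wild type bleomycin lungs, against 8.85, 8.63 and 8.67 in wild type saline lungs. The 3 wild type saline arrays stood above the other 9, which overlapped. The wild type fall was 1.74-fold (-0.80 ± 0.18, adjusted p = 0.00423), and the knockout change was 0.01 ± 0.18 (adjusted p = 0.988).

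Per3 was at 8.06, 8.29 and 8.50 in knockout bleomycin lungs, against 8.83, 8.94 and 8.74 in knockout saline lungs. It was at 8.17, 8.49 and 8.33 in wild type bleomycin lungs, against 9.11, 8.54 and 9.08 in wild type saline lungs. Neither pair overlapped, and with this probe set the change was -0.55 ± 0.15 in knockout lungs (adjusted p = 0.0711) and -0.58 ± 0.15 in wild type lungs (adjusted p = 0.0122). The other 3 bright Per3 probe sets were at -0.42, -0.49 and -0.28 in knockout lungs, against -0.84, -0.78 and -0.48 in wild type lungs. Without wild type saline replicate 1 the wild type call was lost (adjusted p = 0.0583).

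Per1, which responds fast to glucocorticoids and to cyclic AMP, was at 9.57, 9.51 and 9.69 in knockout bleomycin lungs, against 9.19, 9.26 and 9.52 in knockout saline lungs. It was at 9.63, 9.50 and 9.23 in wild type bleomycin lungs, against 9.97, 10.21 and 8.83 in wild type saline lungs. Wild type saline replicate 3 was the lowest array of all, while its 2 companions were the highest. The change was 0.27 ± 0.26 in knockout lungs (adjusted p = 0.651) and -0.22 ± 0.26 in wild type lungs (adjusted p = 0.579). Without wild type saline replicate 3 the wild type change was -0.63 and passed (adjusted p = 0.0046).

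The Cryptochromes, partners of the PER proteins in repression, did not move alike. Cry2 was at 8.47, 8.37 and 8.36 in knockout bleomycin lungs, against 8.66, 8.65 and 8.76 in knockout saline lungs. It was at 8.04, 8.16 and 8.18 in wild type bleomycin lungs, against 8.95, 8.99 and 8.78 in wild type saline lungs. The groups formed 4 separate bands, wild type bleomycin lowest and wild type saline highest. The wild type fall was 1.72-fold (-0.78 ± 0.08, adjusted p = 1.8e-05), and the knockout change of -0.29 ± 0.08 did not pass (adjusted p = 0.0675).

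Cry1 was at 6.65, 6.81 and 6.92 in knockout bleomycin lungs, against 6.62, 6.54 and 6.68 in knockout saline lungs. It was at 7.06, 6.98 and 6.97 in wild type bleomycin lungs, against 7.38, 7.19 and 7.12 in wild type saline lungs. Every knockout array was below every wild type array, with either treatment. The change with bleomycin was 0.18 ± 0.09 in knockout lungs (adjusted p = 0.317) and -0.23 ± 0.09 in wild type lungs (adjusted p = 0.0796), neither past the test.

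**Figure D2:**
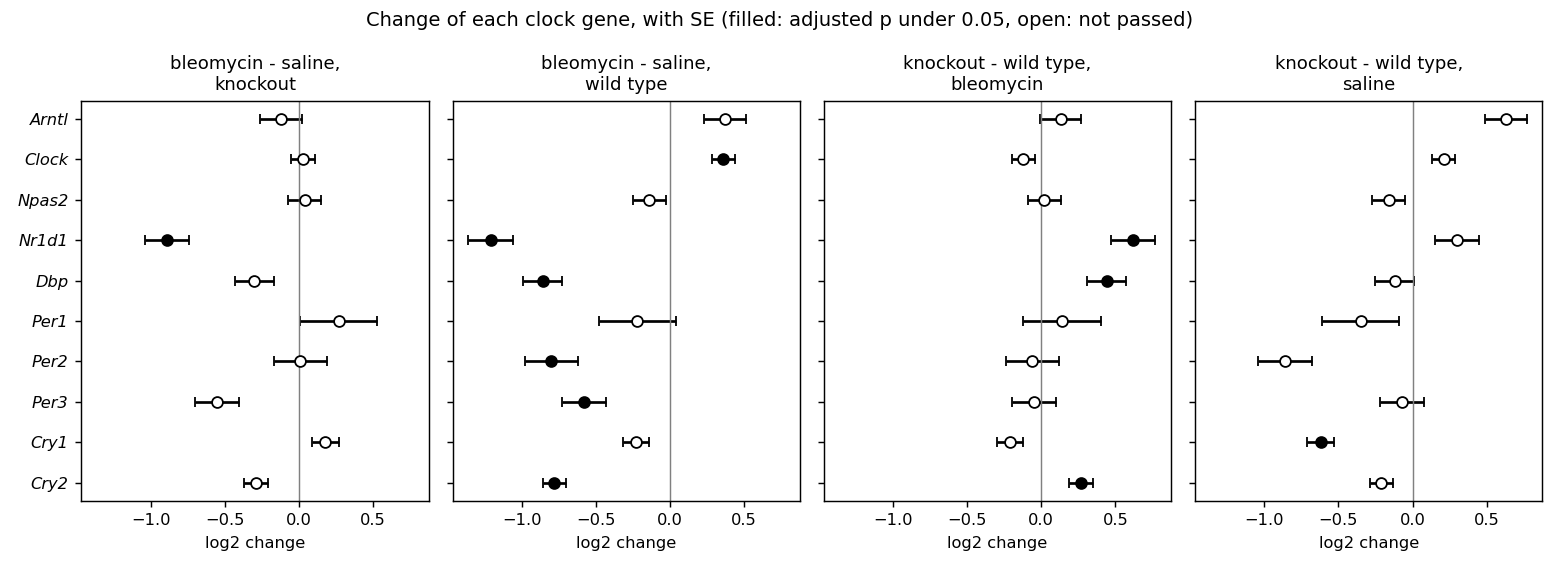
Log2 change of each clock gene (± SE from the fit) in 4 comparisons, from left to right bleomycin against saline in knockout, bleomycin against saline in wild type, knockout against wild type after bleomycin and knockout against wild type after saline; filled points have an adjusted p under 0.05. Filled points number 1, 6, 3 and 1.

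Whether bleomycin acted differently in the 2 genotypes was tested as the difference between the responses, knockout minus wild type. Of the 10 genes Cry2 passed, upwards, where 5.02% of all genes did, 2.03% of all genes upwards. Its difference was 0.48 ± 0.11 (adjusted p = 0.0303), that is, a smaller fall in knockout lungs. The differences of Per2 (0.81 ± 0.25, adjusted p = 0.0794), Cry1 (0.41 ± 0.13, adjusted p = 0.0843) and Dbp (0.57 ± 0.18, adjusted p = 0.0915) did not pass. Those of Nr1d1 (0.32 ± 0.22, adjusted p = 0.431) and Per3 (0.02 ± 0.22, adjusted p = 0.963) were smaller beside their errors. The Per3 value is that of the brightest probe set. Its other bright probe sets were at 0.42, 0.29 and 0.20, which did not pass over all probe sets. The Cry2 call was lost without any 1 of 6 arrays, namely knockout bleomycin replicate 1, knockout saline replicate 1 or 2, wild type bleomycin replicate 1, and wild type saline replicate 1 or 2. These comparisons share arrays, so the called genes of one are not independent of those of another.

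Set directly against wild type lungs after bleomycin, knockout lungs had higher Nr1d1 (1.54-fold, 0.62 ± 0.15, adjusted p = 0.0163), Dbp (1.36-fold, 0.44 ± 0.13, adjusted p = 0.0343) and Cry2 (1.21-fold, 0.27 ± 0.08, adjusted p = 0.0367). These are 3 of 10, where 15.4% of all genes were called and 7.52% were called higher. The groups did not overlap for 5 of the 10 (these 3, with Clock and Cry1 lower in knockout lungs and not called), as for 33.3% of all genes. Nr1d1 lost its call without knockout bleomycin replicate 1 (adjusted p = 0.0726), wild type bleomycin replicate 1 (0.0598) or wild type bleomycin replicate 2 (0.0592). Dbp and Cry2 were called in neither the fit limited to these groups nor that with array weights, and leaving out 1 array brought the number of clock genes called to between 0 and 3.

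After saline, knockout lungs differed from wild type lungs in 1 clock gene. Cry1 was 1.53-fold lower in knockout lungs (-0.62 ± 0.09, adjusted p = 0.00896). It was the only one of the 10 called, where 0.489% of all genes were called and 0.192% were called lower. Per2 (-0.86 ± 0.18, adjusted p = 0.0553) and Arntl (0.63 ± 0.14, adjusted p = 0.079) were larger in size and did not pass. With their other probe sets Per2 was at -0.65 and -0.27 and Arntl at 0.11, none of which passed over all probe sets. With the brightest probe sets the arrays of Per2, Arntl and Cry1 did not overlap. Nor did those of Clock (0.21 ± 0.08), Nr1d1 (0.30 ± 0.15) and Cry2 (-0.21 ± 0.08), so that 6 of the 10 had separate groups, where 16.7% of all genes did. For Nr1d1 the nearest arrays of the groups were both at 9.84 after rounding. Cry1 lost its call without knockout saline replicate 2 (adjusted p = 0.0549). Per1 was at -0.35 ± 0.26 (adjusted p = 0.694) and passed without wild type saline replicate 3 (-0.77, adjusted p = 0.0409).

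Other genes of the clock and its outputs, a list of 22 of which 20 were measured, were counted in the same way. With bleomycin, none of the 20 was called in knockout lungs, where 3.26% of all genes were. Among them 3 rose in wild type lungs, beside 13.3% of all genes called higher, and 8 fell, beside 14.4% called lower. Of the DBP family, Hlf fell by 1.12 (± 0.13, adjusted p = 4.3e-05) and Tef fell by 0.77 (± 0.09, adjusted p = 6e-05) on the log2 scale in wild type lungs. Their repressing relative Nfil3, which binds the same D-boxes, rose by 1.11 (± 0.15, adjusted p = 1.31e-04). Hlf was at 8.20, 8.40 and 8.16 in knockout bleomycin lungs, against 8.66, 8.53 and 8.67 in knockout saline lungs. It was at 7.60, 8.22 and 7.88 in wild type bleomycin lungs, against 9.09, 9.07 and 8.91 in wild type saline lungs. The bleomycin arrays were below the saline arrays in both genotypes, by more in wild type, and the difference between responses passed for Hlf (0.76 ± 0.18, adjusted p = 0.0354) and Tef (0.50 ± 0.13, adjusted p = 0.0464). Those calls were lost under 9 and 13 of the alternative settings, most of which leave out 1 array.

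In wild type lungs bleomycin also lowered Ciart (-0.78 ± 0.13, adjusted p = 7.81e-04), Nr1d2, the relative of Nr1d1 (-0.44 ± 0.11, adjusted p = 0.00702), and Rora, which activates at the elements that NR1D1 represses (-0.52 ± 0.07, adjusted p = 1.78e-04). Bhlhe41 (-0.47 ± 0.15, adjusted p = 0.036), Usp2, a deubiquitinase (-0.70 ± 0.15, adjusted p = 0.00422), and Nampt, an enzyme of NAD synthesis (-0.33 ± 0.09, adjusted p = 0.0207), were lower too. The Bhlhe41 groups overlapped, and its call was lost under 6 of 19 settings, among them without wild type saline replicate 3 (-0.29) or wild type bleomycin replicate 2 or 3. That of Nampt was lost under 4 of 20, among them the mean of its probe sets (-0.06, adjusted p = 0.723) and without wild type bleomycin replicate 1 or wild type saline replicate 2. With the mean of all probe sets the wild type changes of Rora (-0.21, adjusted p = 0.128) and Tef (-0.43, adjusted p = 0.0862) did not pass, and that of Nr1d2 was 0.01. A dimmer probe set of Nr1d2 (7.02, 5.42 and 8.27) and one of Tef (6.72, 5.51 and 7.90) spread widely in wild type saline lungs. Timeless (0.48 ± 0.09, adjusted p = 0.00145) rose, as did Bhlhe40, a repressor at E-boxes (0.81 ± 0.11, adjusted p = 1.27e-04). Bhlhe40 was at 9.37, 9.49 and 9.73 in knockout bleomycin lungs, against 9.45, 9.49 and 9.32 in knockout saline lungs. It was at 10.39, 10.27 and 10.34 in wild type bleomycin lungs, against 9.59, 9.33 and 9.67 in wild type saline lungs. The 3 wild type bleomycin arrays stood above all others, and the difference between responses was -0.70 ± 0.15 (adjusted p = 0.0237), a call lost without knockout bleomycin replicate 1 or knockout saline replicate 1 or 2. After bleomycin, knockout lungs had lower Bhlhe40 (-0.80 ± 0.11), Nfil3 (-0.60 ± 0.15) and Timeless (-0.46 ± 0.09) and higher Rora (0.29 ± 0.07) than wild type lungs.

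After saline, 1 of the 20 other clock genes was called between genotypes, where 0.489% of all genes were. Ciart was at 7.18, 6.85 and 7.11 in knockout saline lungs, against 7.85, 7.79 and 7.53 in wild type saline lungs (-0.68 ± 0.13, adjusted p = 0.0442). The groups did not overlap. The call was lost under 10 of the alternative settings.

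**Figure D3:**
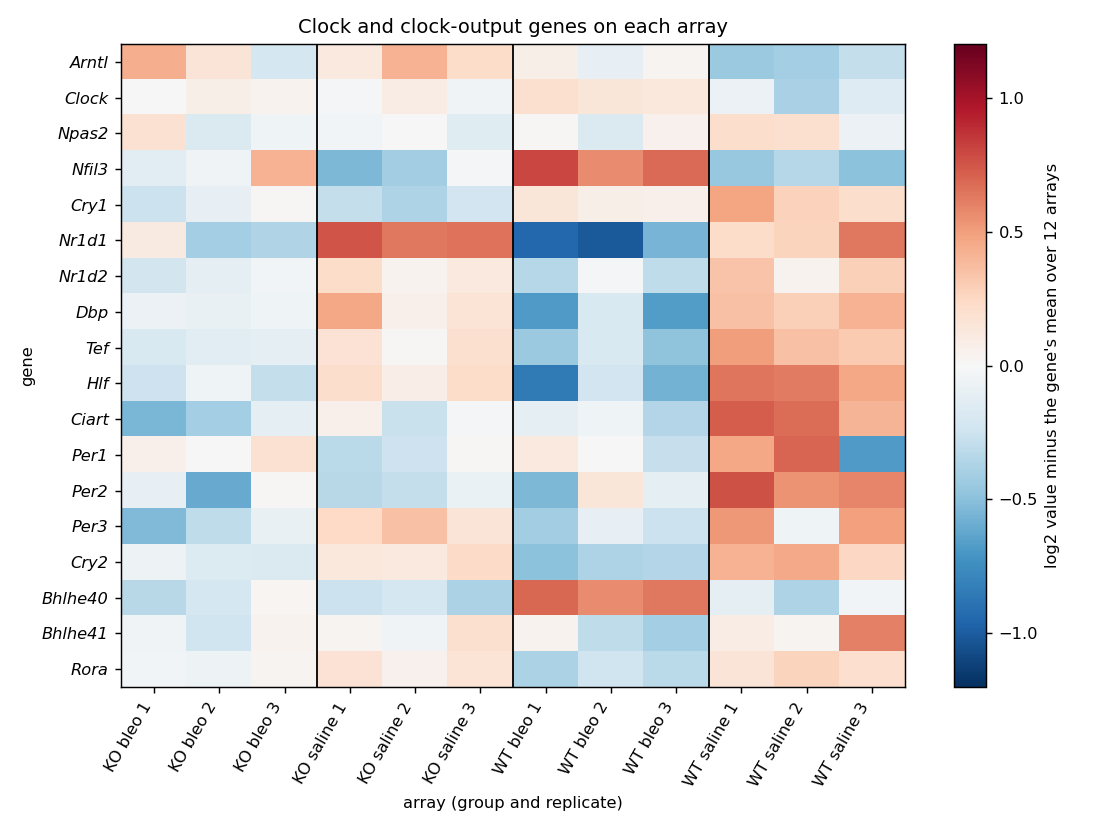
Log2 signal minus the mean of the gene over the 12 arrays, for 18 clock genes (rows) on the 12 arrays (columns, in the order knockout bleomycin, knockout saline, wild type bleomycin, wild type saline). Nr1d1, Dbp, Tef and Hlf are lower in the bleomycin arrays than in the saline arrays of the same genotype, and Per2, Ciart, Tef and Hlf are highest in wild type saline arrays.

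To set whole arrays against the cycle, the mean of the activators Arntl, Clock and Npas2 minus the mean of Dbp, Nr1d1, Per1, Per2 and Per3 was taken on each array. This index is a description, on the log2 scale, and no p was computed for it. It was -2.61, -2.62 and -2.93 in knockout bleomycin lungs, against -3.05, -2.85 and -3.08 in knockout saline lungs. It was -2.33, -2.72 and -2.47 in wild type bleomycin lungs, against -3.48, -3.47 and -3.37 in wild type saline lungs. Wild type saline arrays were the lowest and closest together, and the bleomycin arrays of the 2 genotypes overlapped.

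Group means of the index were -2.72 ± 0.18 in knockout bleomycin, -2.99 ± 0.13 in knockout saline, -2.51 ± 0.20 in wild type bleomycin and -3.44 ± 0.06 in wild type saline lungs (SD, n = 3 each). Bleomycin minus saline was thus 0.28 in knockout and 0.93 in wild type lungs, and knockout minus wild type was -0.21 after bleomycin and 0.45 after saline. The saline difference depended on the genes taken: with Per1 and Per2 left out it was 0.19, and with Arntl minus Dbp alone it was 0.75. The knockout response to bleomycin was 0.56 with Per1 and Per2 left out and 0.17 with Arntl minus Dbp.

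A second index, chosen after the values had been seen, set the later peaking genes Per2 and Cry1 against the earlier peaking Dbp and Nr1d1. It was -2.52, -2.42 and -2.10 in knockout bleomycin lungs, against -3.23, -2.99 and -2.88 in knockout saline lungs. It was -1.71, -1.61 and -1.73 in wild type bleomycin lungs, against -1.99, -2.19 and -2.44 in wild type saline lungs. The groups stood in another order than in the first index. Knockout arrays lay below the wild type arrays of the same treatment, and bleomycin arrays above the saline arrays of the same genotype. The genotypes differed by -0.66 after bleomycin and -0.83 after saline.

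**Figure D4:**
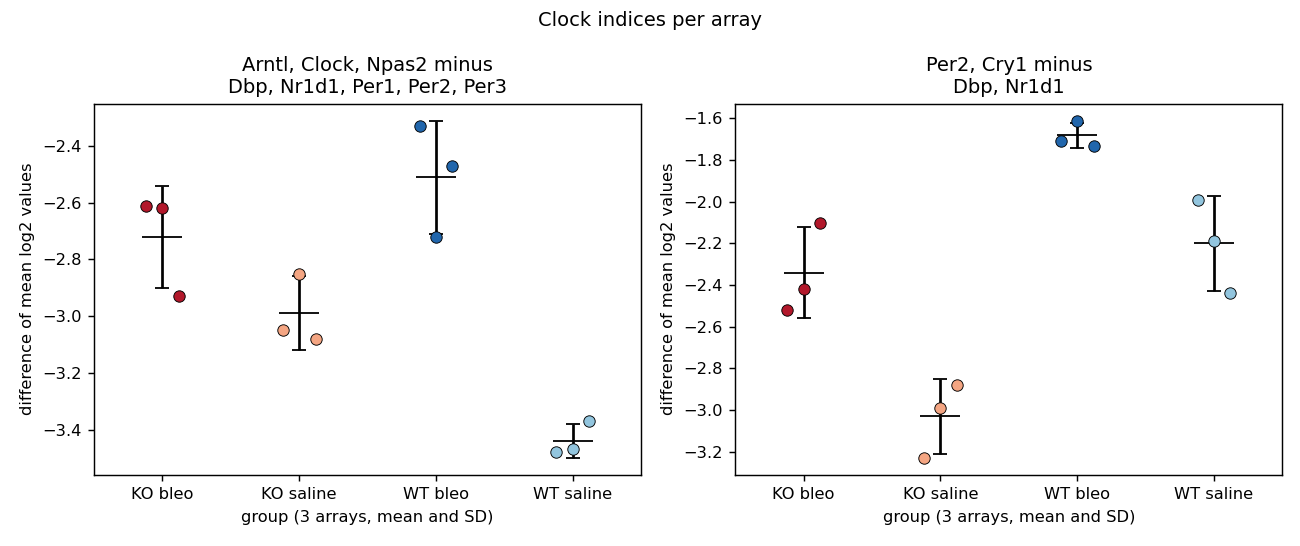
The first index (activators minus Dbp, Nr1d1 and the Per genes) and the second index (Per2 and Cry1 minus Dbp and Nr1d1) on each of the 12 arrays, in log2 units, with the groups from left to right knockout bleomycin, knockout saline, wild type bleomycin and wild type saline. The first index is lowest in wild type saline lungs (-3.48 to -3.37), the second in knockout saline lungs (-3.23 to -2.88).

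Within groups, Arntl and Dbp, which oppose each other in the cycle, were compared as deviations from the group means across the 12 arrays. Pearson's r was -0.38 (exact permutation within groups, 1296 arrangements, two-sided p = 0.0586) and Spearman's rho was -0.50 (p = 0.118), and this was the only pair tested. Without the 2 arrays farthest from the median of Arntl, knockout bleomycin replicates 3 and 1, r was -0.71 (exact permutation p = 0.0694), and with the mean of all probe sets r was -0.22 (exact permutation p = 0.471). The relation passed in none of these cases. The arrays fall into 4 groups, and groups of 3 are too small for an r of their own.

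The spread between arrays of a group differed from one clock gene to another. The median residual SD of the 10 was 0.184 log2 units, beside 0.125 over all genes tested, and the median percentile of their SDs was 82.47, with 3 of the 10 under 50. When a gene's probe sets were averaged, that median was 61.53, and 5 of the 10 were under 50. Per1 stood highest, at percentile 98.8, followed by Per2 at 94.2, Nr1d1 at 90.3 and Per3 at 90.0. Without wild type saline replicate 3 the residual SD of Per1 was 0.163 instead of 0.393, at percentile 76.1. With the mean of its probe sets Per3 lay at percentile 44.4, while Per2 was at 89.5 and Nr1d1 at 92.2. Cry1, Clock and Cry2 lay at percentiles 32.9, 23.1 and 14.1 with the brightest probe set.

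Probe sets of a gene did not always move alike. For wild type bleomycin against saline, tested over all 34958 probe sets, of which 21.4% were called, both Dbp probe sets fell (-1.16 and -0.86) and so did the 4 brighter Per3 probe sets (-0.84 to -0.48). The 2 dim Per3 probe sets were at -0.11 and 0.06, and did not pass. Per2 fell by 0.80 and 0.96 with the brighter probe sets and was at -0.34 with the dimmest, which did not pass. The second Arntl probe set was at -0.01, against 0.37 for the brightest. For Npas2 the second was at 0.28, against -0.14 for the brightest, and neither passed. Of the 4 Clock probe sets, all were higher after bleomycin (0.17 to 0.36) and 1 was called.

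Markers of other cells moved with bleomycin too. The counts that follow stand beside 27.7% of all genes called in wild type lungs and 3.26% in knockout lungs. Of 8 macrophage markers 7 were higher after bleomycin in wild type lungs and 6 in knockout lungs, with a summed log2 level of 12.42 to 12.71 in knockout bleomycin, 11.99 to 12.13 in knockout saline, 12.91 to 13.08 in wild type bleomycin and 11.78 to 12.05 in wild type saline lungs. Of 8 club cell genes 6 were lower after bleomycin in wild type lungs and none in knockout lungs. Their summed level was 16.06 to 16.18 in knockout bleomycin, 16.23 to 16.39 in knockout saline, 15.32 to 15.88 in wild type bleomycin and 16.18 to 16.41 in wild type saline lungs. All 12 cardiac muscle genes were lower after bleomycin in wild type lungs, 2 of them also in knockout lungs, and their summed level ran from 11.23 to 13.28 in knockout bleomycin, 13.01 to 13.69 in knockout saline, 11.13 to 11.68 in wild type bleomycin and 12.94 to 13.48 in wild type saline lungs. No marker is at 0 on this scale. The part of these cell types in the clock gene changes was not tested.

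Immediate early genes and glucocorticoid targets were counted as well. Of 14 immediate early genes, which respond within minutes to stimuli and to handling of tissue, 5 were higher in knockout saline lungs and none lower: Btg2 (0.74 ± 0.11, adjusted p = 0.00896), Egr1 (1.81 ± 0.28, adjusted p = 0.0128), Zfp36 (0.76 ± 0.13, adjusted p = 0.0237), Nr4a1 (1.46 ± 0.25, adjusted p = 0.0249) and Fos (1.64 ± 0.31, adjusted p = 0.0351), the last named after its value was seen. In this comparison 0.489% of all genes were called, and the median log2 change of the list was 0.74, beside -0.02 over all genes. Their summed log2 level was 14.23 to 14.38 in knockout saline lungs, against 13.37 to 13.79 in wild type saline lungs, without overlap.

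Of 14 glucocorticoid targets, Fkbp5, which encodes a chaperone of the glucocorticoid receptor, was lower in knockout saline lungs, at 7.36, 7.96 and 8.15, against 8.85, 9.83 and 8.90 in wild type saline lungs (-1.37 ± 0.27, adjusted p = 0.0448). After bleomycin it was at 7.98, 7.75 and 8.08 in knockout lungs, against 9.92, 9.60 and 9.14 in wild type lungs (-1.62 ± 0.27, adjusted p = 0.00159). Every knockout array was below every wild type array, as for Cry1. After saline Fkbp5 was the only one of the 14 called, where 0.489% of all genes were. Not called, but lower without overlap in knockout saline lungs, was Zbtb16 (8.93 to 9.89, against 10.53 to 10.85). So were Tsc22d3 (10.59 to 10.95, against 11.12 to 11.57) and Angptl4 (7.94 to 8.23, against 8.35 to 9.31). Dusp1 was higher without overlap (12.26 to 12.44, against 11.25 to 11.80). Groups did not overlap for 16.7% of all genes. Bright genes weigh most in a summed level. That of the 14 was 14.01 to 14.20 in knockout saline lungs, against 14.11 to 14.34 in wild type saline lungs, which overlap. Their part in the Cry1 difference was not tested.

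Genes whose variation within groups ran most like that of Arntl and Dbp were ranked among 12519 genes with a mean of at least 5, by Pearson's r across the 12 arrays after group means were taken out. These r values are a description over few arrays, and the extremes of so many genes are large by their number. Arntl spread most in knockout bleomycin lungs (SD 0.33, against 0.09 to 0.15 in the other groups), so its r values weigh those arrays most. Most like Arntl were Fam71d (0.89), Zfp316 (0.89), Ramp2 (0.88), Camk2a (0.88) and Peli2 (0.88). Most opposite were Zdhhc21 (-0.98), Kntc1 (-0.94), Retnla (-0.92), Cnksr3 (-0.90) and Rps4x (-0.89). Retnla encodes FIZZ1, of the same family as Retnlb. Ciart was at -0.85, rank 12 from the lowest, and Cry1 at -0.73. Clock was at 0.07, and Nr1d1, the repressor of Arntl, was at 0.55, rank 562 from the highest.

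Most like Dbp were Cul2 (0.92), Lrif1 (0.87), Abcb1a (0.85), Cflar (0.85) and Fancb (0.85), and most opposite were Cchcr1 (-0.95), Gorasp1 (-0.92), Spon2 (-0.91), Grm4 (-0.91) and Bgn (-0.87). Of the other clock genes Nr1d2 (0.78) had rank 41, Tef (0.73) rank 83, Csnk1d (0.65) rank 220 and Hlf (0.64) rank 242, whereas Nr1d1 was at -0.11 and Per1 at -0.17.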

How the data were processed

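Whole-lung total RNA of 12 samples was hybridized to Affymetrix expression arrays, 1 per sample. The authors deposited a log2 value for each of 45101 probe sets, summarised with RMA in affy, per the submitters' processing notes, which also name limma and give no versions or settings. Of the probe sets, 34958 were paired with 1 gene in the platform annotation, 932 with several and 9211 with none; 34754 of the first were found in a mouse gene table through their Entrez identifier. The brightest probe set by mean stood for each of 18194 genes, without a filter.

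All arrays entered 1 limma fit (limma 3.58.1, R 4.3.3) with a mean per group and eBayes (8 residual and 4.86 prior degrees of freedom). The 5 comparisons were the bleomycin response of each genotype, how these responses differed, and knockout against wild type after each treatment. Calls took an adjusted p under 0.05 (Benjamini-Hochberg, all genes), and the fit was checked on simulated data. Precision is limited by having 3 arrays in a group. Scan dates and detection calls were not used here. The clock genes, the other lists and the tests were chosen with earlier results of these data known. The rule for names took all 10 genes, 7 further clock genes with up to 4 others of the smallest p, up to 4 of the smallest p from each other list, and the 5 most like and 5 most opposite genes, leaving out clone names. Same-numbered arrays of different groups correlated at -0.297 to 0.203 in their deviations. Differently numbered arrays were not set beside them, so this does not settle whether the numbers pair the samples. The labels give the numbers no meaning. Alternatives changed the normalization, the filter, the probe set rule, the samples fitted, the weights and the index.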

Additional observations from a re-analysis of the deposited data

Results flagged for a closer look

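Among the 10 clock genes and 20 others measured, 4 bleomycin responses differed between genotypes by the test of the difference. For that test 5.02% of all genes were called. Another 3 genes had arrays on opposite sides without passing it, a rule whose share over all genes is not given here. The test was passed by Cry2 (0.48, knockout minus wild type, log2), Tef (0.50), Hlf (0.76) and Bhlhe40 (-0.70). The changes of the first 3 were negative in both genotypes and smaller in knockout lungs, and that of Bhlhe40 was larger in wild type lungs. For Per1 (0.49), Cry1 (0.41) and Fbxl21 (0.25), a ubiquitin ligase subunit for the CRY proteins whose probe set was dim, the change had opposite directions in the 2 genotypes, with the bleomycin arrays on one side of the saline mean in knockout lungs and on the other in wild type lungs. Those 3 differences did not pass the test, and none of the 3 genes was called with bleomycin in either genotype.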

How the results depend on the processing

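For bleomycin in wild type lungs between 5 and 8 clock genes were called under the settings run (5 to 7 when 1 array was left out, 8 with array weights). The other counts moved more. For bleomycin in knockout lungs the count of 1 became 2 with quantile normalization repeated or only those groups fitted and 3 with array weights, and ran from 1 to 2 without 1 array. For the difference between responses the count of 1 became 3 with array weights and 0 with the replicate number as a block, and ran from 0 to 3 without 1 array. Knockout against wild type after bleomycin went to 1 instead of 3 clock genes with only those groups fitted, with array weights and with the replicate block, and ran from 0 to 3 without 1 array. After saline the count of 1 became 2 with genes under a mean of 5 left out, array medians subtracted, quantile normalization repeated, eBayes with trend and robust, or only those groups fitted, and 4 with array weights, and ran from 0 to 2. The fit of only the groups compared gives no value for the difference between responses. The replicate block, whose numbers have no meaning given in the labels, changed no other clock count.

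Over all genes, array weights brought the calls to 1286 instead of 594 for bleomycin in knockout lungs, 1888 instead of 914 for the difference between responses and 1105 instead of 89 after saline. The replicate block gave 601 for that difference, and the fit of only 2 groups gave 37 after saline. Without 1 array the counts ran from 211 to 796, 380 to 1052, and 24 to 112 in those comparisons, and from 1653 to 3138 after bleomycin against 2804. Subtracting array medians moved the share of higher calls to 37.24% from the reported 48.13% in wild type lungs, and to 60.36% against 40.37%, and 47.14% against 60.67%, for the difference and for saline.

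The index difference for bleomycin in knockout lungs was 0.54 with Arntl and Npas2 minus Dbp, Nr1d1 and Per3 and 0.56 with Per1 and Per2 left out (0.22 to 0.38 without 1 array). In wild type lungs it was 1.24 with Arntl minus Dbp and 1.10 without Npas2, an alternative added after seeing the data (0.84 to 1.04). The difference between responses was -1.06, -0.46 and -0.85 for Arntl minus Dbp, that 5-gene index and Npas2 left out (-0.76 to -0.55). Knockout minus wild type after saline was 0.75, 0.20, 0.19 and 0.64 for Arntl minus Dbp, that 5-gene index, Per1 and Per2 left out, and Npas2 left out (0.37 to 0.49), and after bleomycin it ran from -0.32 to -0.10. The correlation of Arntl and Dbp ran from -0.557 to -0.269 without 1 array, and passed without knockout bleomycin replicate 1 (exact permutation p = 0.044), wild type saline replicate 2 (p = 0.0417) or replicate 3 (p = 0.0162), and was -0.218 (p = 0.471) with the mean of all probe sets. The median spread percentile of the clock genes ran from 71.05 to 85.75 without 1 array, an alternative chosen after seeing the data.

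The direction turned, with no call on either side, for Npas2 with the mean of its probe sets in wild type bleomycin (0.07) and after saline (0.03), for Npas2 with quantile normalization repeated after bleomycin (-0.03), and for Per2 with the mean of its probe sets after bleomycin (0.13). The called fall of Nr1d2 in wild type lungs turned to 0.01 (adjusted p = 0.992) with the mean of its 2 probe sets. The dimmer of these was at 7.02, 5.42 and 8.27 in wild type saline lungs. Its lowest value was on replicate 2, the array with the largest difference between 3 prime and 5 prime control probe sets. Leaving out 1 array also turned uncalled changes. With bleomycin in knockout lungs Arntl ran from -0.28 to 0.05, Npas2 from -0.05 to 0.12 and Per2 from -0.11 to 0.20, and in wild type lungs Per1 ran from -0.63 to 0.05. Knockout against wild type after bleomycin ran from -0.03 to 0.30 for Arntl, -0.08 to 0.10 for Npas2, -0.24 to 0.13 for Per2 and -0.16 to 0.06 for Per3. After saline Per3 ran from -0.26 to 0.03, and its difference between responses from -0.09 to 0.21. The cause was not tested in any of these cases.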

Other observations

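Some glucocorticoid targets beside Fkbp5 were also lower in knockout than in wild type lungs after bleomycin. Of the 14 genes, 7 were called lower and none higher, where 1435 of all 18194 genes were called lower. The median log2 change of the 14 was -0.52, beside 0.03 over all genes tested, 15.4% of which were called. The 7 lower genes include the metal-binding metallothioneins Mt2 (-1.86 ± 0.26, adjusted p = 5.47e-04) and Mt1 (-1.06 ± 0.17, adjusted p = 0.00142), and the cell cycle inhibitor Cdkn1a (-0.87 ± 0.18, adjusted p = 0.0054). The other 7 were not called, and some of these had higher means in knockout lungs, among them Sult1a1 (8.44 against 7.91) and Tsc22d3 (10.77 against 10.62). In wild type lungs bleomycin moved the list both ways, with 4 genes higher and 4 lower, beside 13.3% of all genes called higher and 14.4% called lower. Cdkn1a (1.93 ± 0.18), Mt2 (2.56 ± 0.26), Mt1 (1.52 ± 0.17) and Sgk1 (0.60 ± 0.08) were the 4 that rose. In knockout lungs, where 3.26% of all genes were called, 1 of the 14 was, Cdkn1a (1.25 ± 0.18, adjusted p = 0.00267), which also responds to DNA damage.

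Genes of cell division moved with bleomycin beside the clock genes. Of 7 measured, 7 rose in wild type lungs and 5 in knockout lungs, and 6 had a smaller rise in knockout lungs by the test of the difference. The share of all genes called was 13.3% for rises in wild type lungs, 3.26% in knockout lungs and 5.02% for the difference. The summed log2 level of the 7 genes of cell division was 9.08 to 9.78 in knockout bleomycin and 8.32 to 8.66 in knockout saline lungs. It was 11.04 to 11.39 in wild type bleomycin and 8.53 to 9.18 in wild type saline lungs. The part of these cell division genes in the clock gene changes was not tested.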
